A study of Mus musculus with 6 samples.

Results

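Basement membranes are thin matrix sheets built on laminins, which are trimers of an alpha, a beta and a gamma chain. Nidogens link the laminin network to that of collagen IV, while perlecan and agrin carry heparan sulfate chains and bind growth factors and cell surface receptors. In the normal liver the sinusoids have only a discontinuous matrix of this kind, and hepatic stellate cells, the retinoid-storing pericytes in the space between hepatocytes and endothelium, are among the cells that make it. The genes followed here are a fixed set of 10: the laminin alpha chains Lama2, Lama4 and Lama5, the beta chains Lamb1 and Lamb2, the gamma chain Lamc1, the nidogens Nid1 and Nid2, perlecan (Hspg2) and agrin (Agrn). They were matched by NCBI gene identifier, and all 10 were listed in every library and passed the filter on low counts, out of 17909 identifiers listed in at least 1 library.

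RNA was sequenced from 6 libraries of primary hepatic stellate cells of 24-week-old male C57BL/6 mice. The HAS2_Tg group (replicates 4, 5 and 6) carries a human HAS2 transgene under the alpha smooth muscle actin promoter (ASMA-HAS2 Tg), a promoter of smooth muscle and activated stellate cells, and the Has2_KO group (replicates 7, 8 and 9) has a floxed Has2 gene deleted with Lrat-Cre, which acts in stellate cells. In both groups livers were perfused with collagenase and pronase, the cells were banded on Nycodenz and depleted of macrophages with Cd11b microbeads, and there followed 4 h of attachment and 14 h of further culture in 10% serum, and the titles give day 1. Wild-type cells were not analysed here. Each difference is therefore between 2 altered genotypes, and which of them departs from the wild type cannot be told apart. The labels do not say whether the libraries of a group came from separate mice, so p-values measure the spread between these libraries only. Since these are bulk samples, fewer cells of a type and less RNA per cell cannot be told apart either.

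Total expected counts (estimated reads per gene) lay between 11961726 and 12423220 per library. Has2 had 835 to 889 counts in the HAS2_Tg libraries and 1 count in each Has2_KO library, which goes with the knockout label; the human transgene is counted only as far as its reads align to the mouse gene. HAS2_Tg replicate 4 stood apart from the other transgenic libraries, with a chi-square per degree of freedom (over genes with at least 20 counts in a pair) of 22.8 and 31.5 against them, compared with 6.24 between replicates 5 and 6 and at most 3.17 within Has2_KO. The unnamed identifier 19791, which added most to the value between replicates 4 and 6, held 1.59% of the counts in replicate 4 and no more than 0.156% elsewhere. Without it the 3 values among transgenic libraries were 11.3, 17.1 and 5.66. Stellate cell markers summed to 3084 to 3566 FPKM (a level per gene length and per library size) in HAS2_Tg and 2573 to 2673 in Has2_KO, and 9 of 12 passed as higher in HAS2_Tg. All 16 sinusoidal endothelial markers were lower in HAS2_Tg, at summed levels of 12.4 to 14.9 against 339 to 373 FPKM. None had 0 counts in every HAS2_Tg library, but Stab2 and Oit3 had 0 in replicate 5 and Fcgr2b had 0 in replicate 4. All 13 tested macrophage markers were lower as well, at 10.2 to 12.5 against 482 to 517 FPKM, and Clec4f and Timd4 had no count in HAS2_Tg. Of the other marker lists, 6 of 7 tested hepatocyte and 4 of 4 cholangiocyte genes were lower in HAS2_Tg. So were 2 of 3 neutrophil and 1 of 1 mesothelial genes. Some of these were low even in Has2_KO, such as Apob (0.253 FPKM) and Wt1 (1.39 FPKM). The hepatocyte markers summed to 252 to 287 FPKM in HAS2_Tg and 181 to 194 in Has2_KO. Most of this was Ass1, the 1 called higher (log2 fold change 0.83). Of 9 tested markers of portal fibroblasts or vessel muscle 5 were higher and 3 lower. Myh11 (3.55), Lmod1 (2.41), Notch3 (1.73), Des (1.56) and Eln (1.25) rose, and Thy1 (-2.17), Cd34 (-2.13) and Fbln2 (-0.69) fell. Over all genes tested, 20.2% were higher and 20.5% lower.

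Of the 10 genes, 6 were higher in HAS2_Tg, 1 was lower and 3 did not pass. Lama2 rose 3.70-fold, Lamb2 2.01-fold, Lamc1 1.59-fold, Hspg2 1.35-fold, Lamb1 1.35-fold and Nid2 1.32-fold, while Lama4 was 4.56-fold lower. Lama5, Nid1 and Agrn did not pass. Among all 13014 genes tested, 40.7% were called, 20.2% as higher and 20.5% as lower in HAS2_Tg (edgeR's quasi-likelihood test, Benjamini-Hochberg adjusted p under 0.05), so calls were frequent among all genes. The same shares were 29.7% higher and 16.2% lower among the 4359 genes with a mean of at least 50 CPM (counts scaled by library size), a level that 7 of the 10 genes reached in each group. The median log2 fold change was 0.42 over the 10 genes and -0.01 over all genes tested. The 10 genes were chosen with earlier results of these data known, so the comparison with all genes is a description. Together the 10 genes took 0.458% to 0.529% of the counts in the HAS2_Tg libraries and 0.402% to 0.418% in the Has2_KO libraries. Of the 12 stellate cell markers 9 rose in the same libraries (median log2 fold change 0.79), and with total counts 8 were higher and 1 lower. Endothelial (median -6.10) and macrophage (median -6.11) markers fell. The part of these markers in the counts of the 10 genes was not tested.

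**Figure D1:**
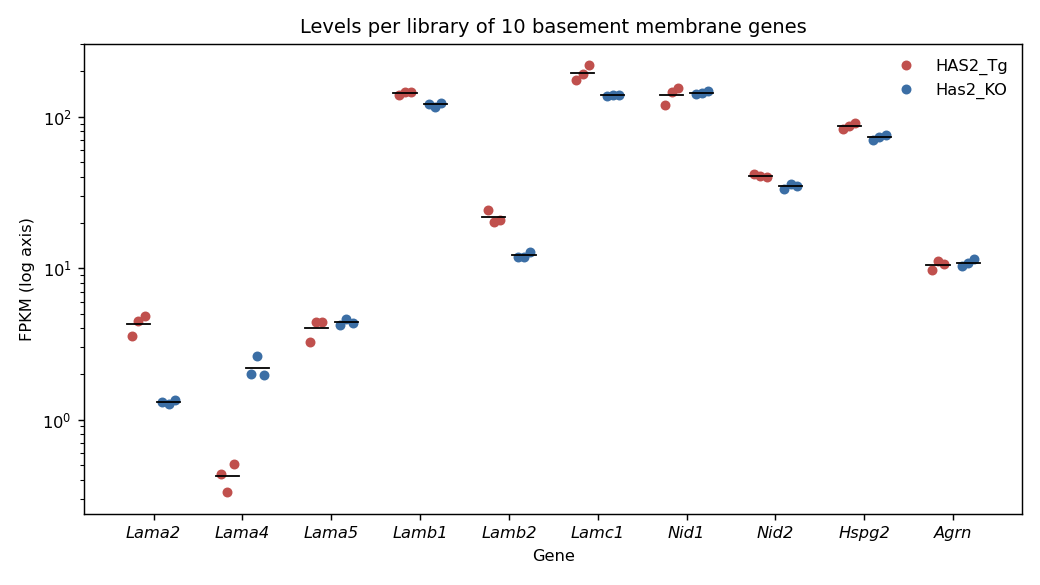
FPKM of the 10 genes in each library, on a log axis, with points for HAS2_Tg (red) and Has2_KO (blue) and a line at each group's mean (n = 3). The groups are apart for Lama2, Lama4, Lamb1, Lamb2, Lamc1, Nid2 and Hspg2, and they overlap for Lama5, Nid1 and Agrn.

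Scaling bears on the small changes. The main values use TMM factors, which assume that most genes do not differ. With total counts in their place the median of all genes moved by -0.17 on the log2 scale, and the calls over all genes went from 2625 higher and 2673 lower to 1477 higher and 4827 lower. The same 6 of the 10 genes were higher and Lama4 was lower under both scalings, but Lama5, Nid1 and Agrn changed sign. With total counts the log2 fold change went from 0.43 to 0.26 for Lamb1 and for Hspg2, from 0.40 to 0.23 for Nid2 and from 0.67 to 0.50 for Lamc1, each still past the threshold.

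Promoter sequences are shown for the pair of members with the largest rises, Lama2 and Lamb2, and for Lamb1, the paralog of Lamb2 with the smaller rise. They are from RefSeq (GRCm38.p6), cover 250 bases before to 50 after a transcript start, and are written in the direction of transcription. That start need not be the outermost one of the gene. The Lama2 window lies almost wholly inside the gene span given below, as does the larger part of the Lamb1 window, so these windows are not purely upstream sequence. The table matched 7 of the 10 genes, with 1 promoter each except for Agrn, which has 2. Capitals mark the GC box GGGCGG on either strand and, in Lama2, a CArG box, the site type bound by serum response factor.
Lama2 promoter, chr10:27616893-27617192, minus strand: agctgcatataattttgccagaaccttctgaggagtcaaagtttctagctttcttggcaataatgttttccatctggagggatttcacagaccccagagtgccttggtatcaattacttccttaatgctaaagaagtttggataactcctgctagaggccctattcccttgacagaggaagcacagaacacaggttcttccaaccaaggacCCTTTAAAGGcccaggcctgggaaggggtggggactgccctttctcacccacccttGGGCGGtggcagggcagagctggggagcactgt
Lamb2 promoter, chr9:108479612-108479911, plus strand: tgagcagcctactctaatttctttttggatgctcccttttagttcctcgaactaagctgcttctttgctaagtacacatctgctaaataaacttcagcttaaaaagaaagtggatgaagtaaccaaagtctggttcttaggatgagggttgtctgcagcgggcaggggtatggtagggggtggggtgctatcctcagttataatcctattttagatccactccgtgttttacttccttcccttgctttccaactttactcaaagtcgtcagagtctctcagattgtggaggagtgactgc
Lamb1 promoter, chr12:31265043-31265342, plus strand: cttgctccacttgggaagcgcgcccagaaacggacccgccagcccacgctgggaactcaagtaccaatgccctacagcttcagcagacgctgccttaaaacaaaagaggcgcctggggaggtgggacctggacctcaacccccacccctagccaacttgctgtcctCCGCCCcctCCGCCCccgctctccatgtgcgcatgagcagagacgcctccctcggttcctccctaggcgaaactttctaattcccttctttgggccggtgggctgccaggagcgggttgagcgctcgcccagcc

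The 3 windows have unlike base composition. The Lamb2 window is 44.0% G or C with no GC box, the Lama2 window 50.3% with 1, and the Lamb1 window 63.7% with 2, where the median of all 32851 promoters is 52.7%. GC boxes occur in 35.7% of those promoters, and the other members' windows hold 1 (Nid1), 4 (Lama5), 5 (Hspg2), and 12 and 2 (Agrn). The CArG box of Lama2 is the only one in the members' windows, and 1.63% of all promoters hold one on either strand. The letters TATAAA (13.6% of promoters) and TGACTCA (5.20%, the AP-1 site) are in none of the members' windows, and CATTCC (14.7%, a TEAD site) is in that of Nid1. A match is a description of letters and was not tested for binding.

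The alpha chains carry the cell-binding end of the laminin trimer, and of the 3 in the set 1 rose, 1 fell and 1 did not pass. Lama2 (chr10:26981285-27617191, GRCm38, as are the positions below) encodes the alpha chain best known from the membranes of muscle and nerve. It stood at 3.55, 4.49 and 4.85 FPKM in HAS2_Tg replicates 4, 5 and 6 and at 1.31, 1.27 and 1.34 FPKM in Has2_KO replicates 7, 8 and 9. Every transgenic library was above every knockout library, with HAS2_Tg replicate 4 the lowest of the 3. In CPM the means were 45.0 ± 6.76 and 12.2 ± 0.34 (SD, n = 3), a log2 fold change of 1.89 (SE 0.12, edgeR adjusted p = 6.40e-09) and a fold of 3.70 with a 95% interval of 3.11 to 4.40. Of 9 tested markers of portal fibroblasts or vessel muscle, 5 were also higher and 3 lower. Their median log2 fold change was 1.25. The part of these markers in the Lama2 difference was not tested.

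Lama4 (chr10:38965515-39110188) encodes the alpha chain typical of vessel walls and other mesenchymal tissue. It stood at 0.44, 0.33 and 0.51 FPKM in HAS2_Tg, from 32, 24 and 38 counts, and at 2.00, 2.61 and 1.97 FPKM in Has2_KO, from 151, 198 and 149 counts. Here each knockout library was above each transgenic one. The CPM means were 2.76 ± 0.62 and 12.6 ± 2.07 (SD, n = 3), with a log2 fold change of -2.19 (SE 0.19, edgeR adjusted p = 2.18e-07), which is 4.56-fold lower in HAS2_Tg with a 95% interval of 3.45 to 6.02. Sinusoidal endothelial markers moved in the same direction, with a median log2 fold change of -6.10 over 16 genes. Their part in the Lama4 difference was not tested.

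Lama5 (chr2:180176373-180225904) encodes the widely expressed alpha chain of epithelial and vascular membranes. It had 3.23, 4.43 and 4.43 FPKM in HAS2_Tg and 4.19, 4.62 and 4.31 FPKM in Has2_KO. The groups overlapped, and HAS2_Tg replicate 4 was below all the others. The log2 fold change was 0.06 (SE 0.11, edgeR adjusted p = 0.71), with a 95% interval of the fold from 0.887 to 1.22. With total counts it was -0.12 (edgeR adjusted p = 0.404).

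**Figure D2:**
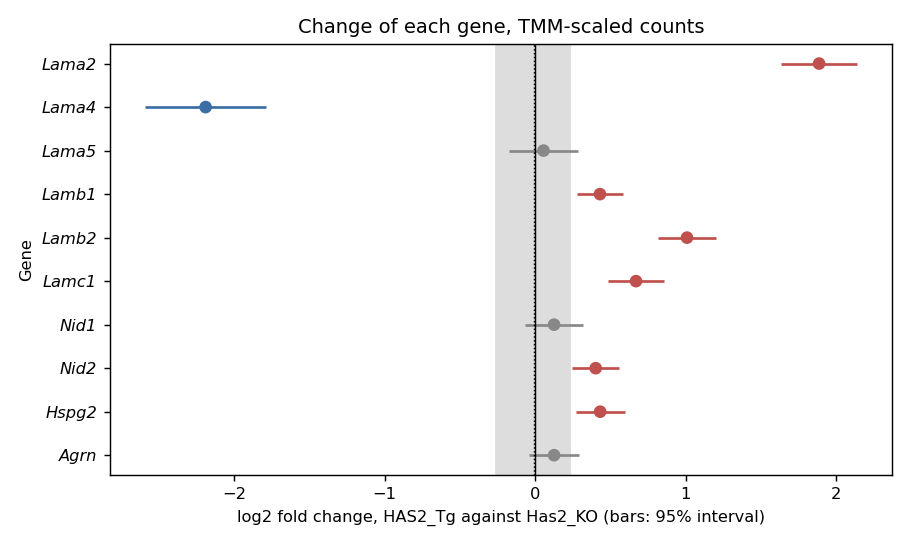
Log2 fold change of each gene between HAS2_Tg and Has2_KO with its 95% interval from the edgeR fit, in red where higher, blue where lower and grey where not passed. The dotted line is the median of all genes (-0.01) and the shaded band holds the middle 50% of them, from -0.26 to 0.23; Lama2 and Lama4 lie farthest out on opposite sides.

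Both beta chains were higher in HAS2_Tg. Lamb1 (chr12:31265146-31329644), the common beta chain of early and vascular laminins, had 139.7, 145.5 and 146.1 FPKM in HAS2_Tg and 121.8, 115.7 and 123.6 FPKM in Has2_KO. The groups did not overlap, and its CPM means were 892.4 ± 16.6 and 661.9 ± 23.3 (SD, n = 3; log2 fold change 0.43, SE 0.07, edgeR adjusted p = 0.000197). Lamb2 (chr9:108479847-108490530), the beta chain of synapses, kidney filters and mature vessels, had 24.2, 20.2 and 20.6 FPKM in HAS2_Tg and 11.9, 11.9 and 12.7 FPKM in Has2_KO. HAS2_Tg replicate 4 was here the highest library. The CPM means of Lamb2 were 131.0 ± 15.1 and 65.1 ± 2.81 (SD, n = 3; log2 fold change 1.01, SE 0.09, edgeR adjusted p = 3.12e-07).

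Lamc1 (chr1:153218922-153332786) encodes the gamma chain shared by most laminins. It had 175.4, 191.3 and 218.3 FPKM in HAS2_Tg and 136.6, 139.6 and 138.7 FPKM in Has2_KO. All transgenic libraries were higher, with a wider spread among them than among the knockout libraries. The CPM means were 1599 ± 177 and 1005 ± 12.6 (SD, n = 3), with a log2 fold change of 0.67 (SE 0.09, edgeR adjusted p = 1.78e-05).

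Of the nidogens, Nid2 passed and Nid1 did not. Nid1 (chr13:13437602-13512275), the main linker of laminin and collagen IV, had 119.2, 145.8 and 153.9 FPKM in HAS2_Tg and 142.1, 143.6 and 147.3 FPKM in Has2_KO. The 3 transgenic libraries spanned the knockout ones on both sides, and the log2 fold change of 0.13 (SE 0.09) did not pass (edgeR adjusted p = 0.28), with a 95% interval of the fold from 0.956 to 1.25. It turned to -0.047 with total counts, and without HAS2_Tg replicate 4 it was 0.22 and passed (edgeR adjusted p = 0.0105). Nid2 (chr14:19751257-19811787), its paralog, had 42.0, 40.3 and 39.8 FPKM in HAS2_Tg and 33.5, 36.1 and 34.8 FPKM in Has2_KO, with no overlap. The CPM means of Nid2 were 214.8 ± 8.86 and 162.5 ± 6.27 (SD, n = 3; log2 fold change 0.40, SE 0.07, edgeR adjusted p = 0.000404).

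Of the proteoglycans, Hspg2 passed and Agrn did not. Hspg2 (chr4:137468751-137570630), the large core protein perlecan, had 82.7, 87.4 and 91.5 FPKM in HAS2_Tg and 70.1, 73.3 and 75.4 FPKM in Has2_KO. Every transgenic library was higher, and the CPM means were 1335 ± 64.3 and 989.4 ± 38.8 (SD, n = 3; log2 fold change 0.43, SE 0.08, edgeR adjusted p = 0.000323). Agrn (chr4:156165290-156197533), which organises the neuromuscular synapse and binds dystroglycan, had 9.66, 11.2 and 10.6 FPKM in HAS2_Tg and 10.3, 10.8 and 11.4 FPKM in Has2_KO. Its groups overlapped, with a log2 fold change of 0.13 (SE 0.08, edgeR adjusted p = 0.218) and a 95% interval of the fold from 0.971 to 1.23. The Agrn value was -0.047 with total counts.

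In CPM, 7 of the 10 genes had groups that did not overlap, 6 of them higher and 1 lower in HAS2_Tg, beside 52.2% of all genes tested (25.2% higher and 26.9% lower). Only Lama2, Lamb2 and Lama4 passed a test against a fold of 1.5, which 12.3% of all genes passed (4.24% higher and 8.03% lower in HAS2_Tg). The other 4 called genes, Lamc1, Hspg2, Lamb1 and Nid2, were 1.32- to 1.59-fold higher.

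Levels per length ran from 0.427 to 195.0 FPKM in HAS2_Tg and from 1.31 to 144.3 FPKM in Has2_KO. In HAS2_Tg the order of mean FPKM was Lamc1 (195.0), Lamb1 (143.8), Nid1 (139.6), Hspg2 (87.2), Nid2 (40.7), Lamb2 (21.7), Agrn (10.5), Lama2 (4.30), Lama5 (4.03) and Lama4 (0.427). Libraries of neighbouring genes overlapped for Lamb1 and Nid1 and for Lama2 and Lama5. In Has2_KO the order was Nid1 (144.3), Lamc1 (138.3), Lamb1 (120.4), Hspg2 (72.9), Nid2 (34.8), Lamb2 (12.2), Agrn (10.8), Lama5 (4.37), Lama4 (2.19) and Lama2 (1.31), and no neighbours overlapped. Lama2 was thus the lowest of the 10 genes in Has2_KO and above Lama4 in every HAS2_Tg library.

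The beta and gamma chains were far above the alpha chains, including those outside the set. Lama1, the alpha chain of early embryonic membranes, was the highest of the 5 alpha chain genes, at 13.8, 14.5 and 15.8 FPKM in HAS2_Tg and 11.0, 11.3 and 11.7 FPKM in Has2_KO. Lama3, the alpha chain of epithelia, had no count in any library except Has2_KO replicate 8, which had 1. The 5 alpha chains summed to 23.5 ± 2.32 FPKM in HAS2_Tg and 19.2 ± 0.657 in Has2_KO (SD, n = 3), the beta chains with Lamb3 to 165.7 ± 1.42 and 132.6 ± 4.53, and the gamma chains to 195.3 ± 21.7 and 138.5 ± 1.51. The alpha sum was 12.0% ± 0.355 of the gamma sum in HAS2_Tg and 13.9% ± 0.324 in Has2_KO, and Lamc1 made up at least 99.8% of the gamma sum in each library. These sums were chosen after the values were seen and were not tested. FPKM compares genes only as far as the deposited lengths, 1 RefSeq transcript per member, match the transcripts present.

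The make-up of the alpha chain transcripts differed between the groups. Lama2 took 16.9%, 18.9% and 18.9% of the summed alpha chain FPKM in HAS2_Tg and 7.07%, 6.40% and 6.92% in Has2_KO. Lama4 took 2.09%, 1.39% and 1.99% against 10.8%, 13.2% and 10.2%, and Lama5 15.4%, 18.6% and 17.3% against 22.6%, 23.3% and 22.3%. Lama1 held most of the sum in both groups, 62.8% ± 2.45 in HAS2_Tg and 59.1% ± 1.81 in Has2_KO (SD, n = 3). The share of Lama2 was thus higher, and those of Lama4 and Lama5 lower, in every transgenic library. The Lama1 share was also higher in each of them, at 61.1% to 65.6% against 57.1% to 60.6%. Lama5 itself did not pass as changed. Shares sum to 100%, so they do not move independently.

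Ratios between genes of one library do not depend on how it is scaled. Lamb1 exceeded Lamb2 by 5.78-, 7.20- and 7.08-fold in HAS2_Tg and by 10.3-, 9.74- and 9.71-fold in Has2_KO, so the ratio was lower in each transgenic library. Nid1 exceeded Nid2 by 2.84-, 3.62- and 3.86-fold against 4.24-, 3.98- and 4.23-fold. Hspg2 exceeded Agrn by 8.56-, 7.83- and 8.66-fold against 6.82-, 6.81- and 6.62-fold. The ratio of Lama4 to Lama5 was 0.136, 0.0745 and 0.115 in HAS2_Tg and 0.477, 0.565 and 0.457 in Has2_KO. None of these 4 ratios overlapped between groups. Of the 10 ratios and shares compared, 9 had a two-sided exact permutation p of 0.1, the smallest that 3 against 3 libraries allow (0.111 after Benjamini-Hochberg adjustment), so none could pass at 0.05; the share of Lama3 had p = 1. The 10 are not separate results. The share of Lamb1 in Lamb1 and Lamb2 restates their ratio, and the alpha chain shares depend on each other.

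**Figure D3:**
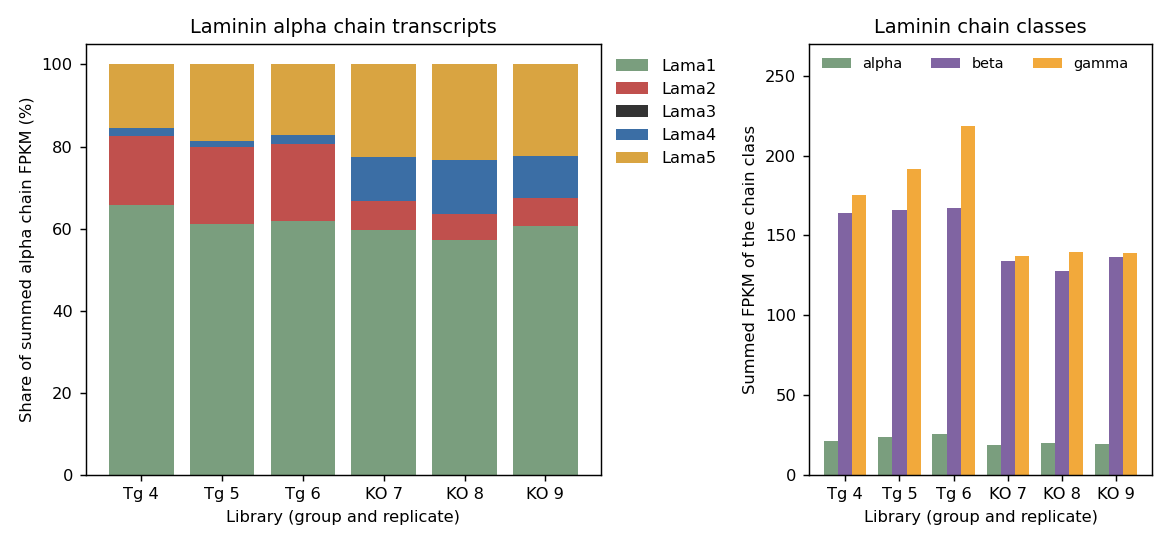
Left, the share of each laminin alpha chain gene in their summed FPKM per library; right, the summed FPKM of alpha, beta and gamma chain genes per library. Lama1 is the largest part in all 6 libraries, the Lama2 part is larger in the Tg libraries, the Lama4 part is larger in the KO libraries, and the alpha sums are 21.0 to 25.6 FPKM in the Tg libraries and 18.5 to 19.8 FPKM in the KO libraries.

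The partner genes of these proteins were read from 6 lists with 55 members listed in the files, of which 39 were tested. In all, 19 of them were higher, 6 lower and 14 did not pass, with a median log2 fold change of 0.43, beside 20.2% higher and 20.5% lower over all genes tested. The lists were chosen with earlier results of these data known, so these counts only describe them. Among the other laminin chains, Lama1 was higher (log2 fold change 0.55, SE 0.08, edgeR adjusted p = 4.11e-05). Among 4 tested basement membrane collagens the 2 chains of the common collagen IV rose, Col4a1 from 4766 ± 328 to 9813 ± 882 CPM (SD, n = 3; log2 fold change 1.04) and Col4a2 from 2713 ± 130 to 6480 ± 657 CPM (1.26). Col4a5 (-0.92) and Col18a1, the precursor of endostatin (-2.32), fell, as did the endothelial markers. The part of those markers was not tested. Col4a5 was low, with 26 to 35 counts per HAS2_Tg library and 47 to 86 per Has2_KO library. It did not pass the edgeR test against a fold of 1.5 (adjusted p = 0.203). The list's median of 0.06 turned to -0.11 with total counts.

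Receptor genes rose in 5 of 10 tested cases and fell in 2, with a median of 0.49. Over all genes tested, 20.2% were called higher and 20.5% lower. Itga1, the integrin alpha 1 subunit that binds collagen IV and laminin, was 719.6 ± 94.9 against 273.2 ± 4.42 CPM (SD, n = 3; log2 fold change 1.40). Itga6, a laminin-binding subunit, was 23.7 ± 1.93 against 6.52 ± 0.325 CPM (1.86), and Itgb1, the beta subunit that pairs with both, rose by 0.87. Bcam, a receptor for the Lama5 product, fell by 0.98 on the log2 scale. Dag1, which encodes dystroglycan, the receptor that binds Lama2 laminins, perlecan and agrin, had 0.66 (SE 0.09). Itga2, the other receptor gene called lower, had -0.91. Dag1 and Itga2 were chosen after their values were seen.

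Enzymes that build the laminin-binding glycan of dystroglycan had a median log2 fold change of 0.21 over 8 tested genes. Of these 3 were called, all as higher. In either direction that share is close to the 40.7% called among all genes, where 20.2% were called higher. B4gat1 rose by 0.65 (SE 0.10, edgeR adjusted p = 0.000121), while Pomt2 had -0.20 and did not pass (edgeR adjusted p = 0.0571). With total counts 2 rose and 2 fell, the list's median was 0.03, and Pomt2 passed as lower (edgeR adjusted p = 0.0017).

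Other basement membrane components rose in 6 of 10 tested cases and fell in 2, with a median of 0.72. The shares over all genes tested were 20.2% higher and 20.5% lower. Sparc, a collagen IV binding protein, stood at 6172 ± 493 against 2803 ± 112 CPM (SD, n = 3; log2 fold change 1.14). Pxdn, the peroxidase that crosslinks collagen IV, had 0.90, Smoc2 0.84 and Tinagl1 0.77. The 2 that fell were Fbln2 (-0.69) and Papln (-0.71), named with their values in view. Of 5 tested proteases and heparanase, 2 rose, Adamts1 (1.02) and the gelatinase Mmp2 (0.58), and none was called lower. In either direction that share is close to the 40.7% called among all genes, where 20.2% were called higher and 20.5% lower. Mmp14 had -0.12 and the heparanase Hpse 0.17, neither passing, and Mmp14 passed as lower with total counts (edgeR adjusted p = 0.00256). Hpse passed without HAS2_Tg replicate 6 (0.21, edgeR adjusted p = 0.0425). The median of this list went from 0.17 to under 0.01 with total counts.

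**Figure D4:**
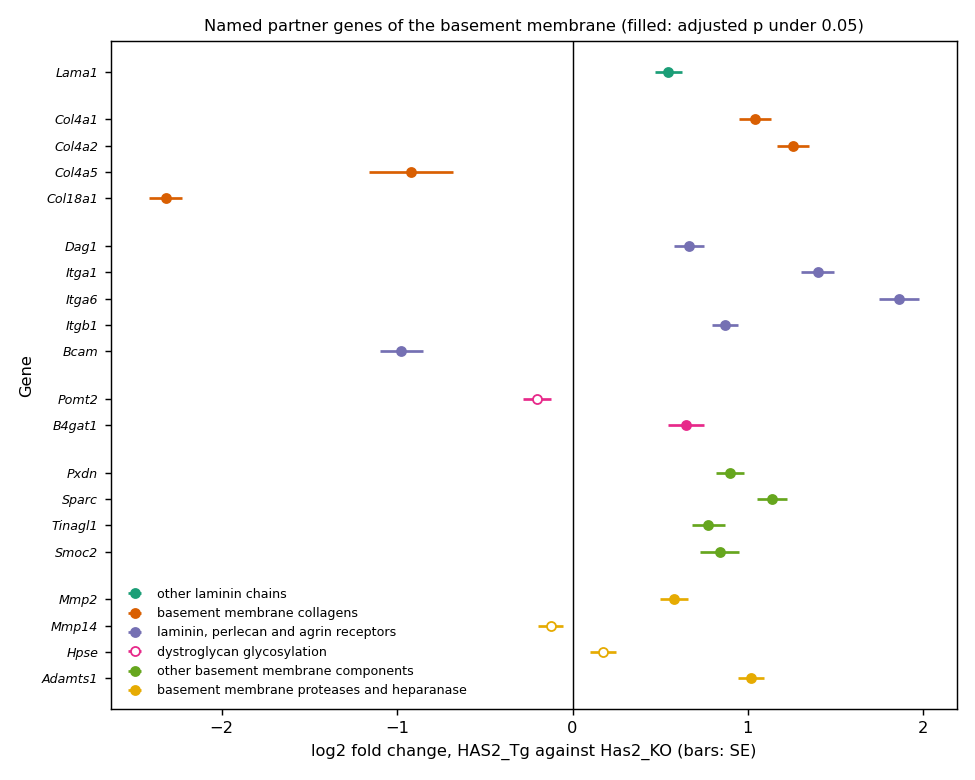
Log2 fold change between HAS2_Tg and Has2_KO of 20 tested partner genes that are named here, by list, with bars for the SE and filled points for an adjusted p under 0.05. Itga2, Fbln2 and Papln, which were lower, are not drawn. Itga6, Itga1, Col4a2 and Sparc lie to the right, and Col18a1, at -2.32, lies farthest to the left.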

How the data were processed

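Each deposited file holds 1 library. Its columns, per the file headers, are gene identifier (NCBI), transcripts (RefSeq), length, expected count and FPKM. The authors' expected counts are estimated reads per gene. The authors' FPKM values are scaled by gene length and depth, per the file headers. RSEM and the mm10 build are named in the submitters' processing notes; the RSEM version, the strand setting and the handling of reads shared by similar genes are not given in the sources used here. Genes absent from a file were set to 0. RefSeq tables of GRCm38.p6, the assembly also called mm10, named 17857 of 17909 identifiers, and 1 symbol of the marker lists (Tf) was not matched.

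After rounding of the expected counts and removal of low genes by filterByExpr, TMM factors were computed. The test was the robust quasi-likelihood F test of edgeR, HAS2_Tg minus Has2_KO, two-sided, with Benjamini-Hochberg adjustment over all 13014 genes at 0.05. CPM values are TMM-scaled. The SE was derived from the fold change and its F statistic, and intervals use the fit's t quantiles. Ratios and shares were taken from FPKM and compared by exact permutation.

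The members and lists were chosen with earlier results of these data known. All members are named, with the 4 smallest adjusted p per partner list and the 2 smallest per marker list (marker names are mostly left out); some genes that this rule takes are not reported here, and any further name was picked with its value in view. The lists of markers covered stellate, endothelial, macrophage, hepatocyte, cholangiocyte, portal fibroblast and vascular smooth muscle, mesothelial and neutrophil genes. The fit was tested on simulated counts, where 15 of 154 calls were false, a share above the threshold of 0.05. It recovered 20.4% of the 1.25-fold changes put in, 70% of the 1.5-fold, 88% of the 2-fold and 100% of the 4-fold ones. Far fewer genes were changed there than the 40.7% called in the data, and evenly up and down. The simulation therefore does not test how the fit handles the shift between scalings.

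Alternatives were other scalings (DESeq2 size factors, total counts, upper-quartile), no or a stricter filter, a fit without marker-list genes, limma fits of FPKM (log2 after adding 1 or 0.1), the Wald test of DESeq2, a test against a fold of 1.5, and each library left out. Software was DESeq2 1.42.0, limma 3.58.1 and edgeR 4.0.16 under R 4.3.3, with scipy 1.17.1, pandas 2.3.3 and numpy 2.4.6 under Python 3.11.15, and figures from matplotlib 3.10.9.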

Additional observations from a re-analysis of the deposited data

How the results depend on the processing

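The count of 6 higher and 1 lower among the 10 genes was the same under 15 of 17 alternatives, and all 7 calls were kept under 16; against a fold of 1.5 it was 2 higher and 1 lower, and without HAS2_Tg replicate 4 it was 7 higher, with a range of 6 to 7 over the libraries left out. Lama5 turned to -0.12 with total counts, -0.10 with limma on log2(FPKM + 1), with or without its filter, -0.13 with log2(FPKM + 0.1) and -0.021 without HAS2_Tg replicate 6 (range -0.021 to 0.18 over the libraries left out). Nid1 turned to -0.047, -0.056, -0.056 and -0.056, and Agrn to -0.047, -0.044, -0.048 and -0.044, under total counts, log2(FPKM + 1), log2(FPKM + 0.1) and log2(FPKM + 1) with no filter. Hpse turned to -0.00087, -0.00092 and -0.00087 in the same limma fits. Over all genes, calls were 1477 higher and 4827 lower with total counts, 1399 and 4198 with log2(FPKM + 1), 1376 and 4138 with log2(FPKM + 0.1), 1366 and 4596 with no filter, and 552 and 1045 against a fold of 1.5. FPKM is scaled by total reads, so these limma fits share the shift of total counts. With expected counts divided by the deposited length in place of FPKM, the differences in ratios and shares moved by less than the spread between libraries. No paired analysis was possible because the groups share no replicate number. Depth limits Lama4, with 24 to 38 counts per transgenic library.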
